A study of Sus scrofa with 17 samples.

Results

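RNA abundance of 10 genes that set muscle identity and restrain muscle growth was followed in the longissimus muscle of weaned piglets: the 4 myogenic regulatory factors MYOD1, MYOG, MYF5 and MYF6, the satellite cell factor PAX7, the MEF2 factors MEF2A, MEF2C and MEF2D, the growth inhibitor MSTN and the embryonic myosin heavy chain MYH3. The genes were chosen by name for their roles, with earlier results of these data known. Counts of called genes among them therefore describe these genes and are not a test of the set. All 10 had a row among the 31908 Ensembl genes of the count table, and all 10 were among the 14203 genes that passed the filter on low counts and were tested.

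The animals were male piglets of a Large White × Duroc cross that were 28 days old when they entered the trial, and they were kept singly in metabolic cages and pair-fed. An adaptation period of 5 days was followed by 2 weeks of trial. The control group (n = 6) ate a wheat, maize and soybean meal diet without seaweed, the UL group (n = 6) ate a diet with 7% of the green seaweed Ulva lactuca, and the ULU group (n = 5) ate the UL diet with 0.01% of ulvan lyase, a recombinant enzyme that cuts the cell wall polysaccharide ulvan. Each library was made from 1 piglet, the labels name the muscle longissimus dorsi and the methods longissimus lumborum, and the methods give more sequenced ULU piglets than the 5 libraries analysed here.

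MYOD1, MYF5, MYOG and MYF6 are basic helix-loop-helix transcription factors that bind DNA with E proteins and switch on muscle genes. In the embryo and in regenerating muscle, PAX7 marks the satellite cells, MYF5 and MYOD1 act in dividing myoblasts, MYOG drives terminal differentiation, and MYF6 (also called MRF4) is the member of the family most associated with mature fibres. MEF2 factors cooperate with them and are held back by class IIa histone deacetylases, whereas myostatin, the product of MSTN, is a secreted ligand of the TGF-β family that acts through activin receptors and SMAD proteins to limit fibre growth.

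Library totals on genes ran from 16137365 to 26546810 counts. A signal of 3 reads was worth 0.130 to 0.195 CPM (counts per 1e6 TMM-scaled reads), a floor that covers counting error only, and the 10 genes had between 79 and 10914 reads in a library. The skeletal muscle markers that had a row of their own (ACTA1, CKM, MYL1, MYL11, DES and a row named MYH2) made up a summed 131893 to 325685 CPM. Their summed median was 176622 CPM in control, 211897 CPM in UL and 236059 CPM in ULU, and the ranges overlapped. The share of counts on the mitochondrial genome averaged 14.8% ± 0.697 for control, 11.6% ± 2.11 for UL and 10.2% ± 1.47 for ULU (SD over 6, 6 and 5 libraries), and every ULU library lay below every control library (two-sided exact permutation test, p = 0.00216, the smallest that the 462 splits can give). It also differed between UL and control (two-sided exact permutation test, p = 0.0108).

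Levels of different genes were compared on the scale of TPM, in which counts are divided by the exonic length of the gene and each library is brought to a total of 1e6. MEF2C was the most abundant of the genes at 134 ± 37.0 TPM (SD over 17 libraries), followed by MYF6 at 93.5 ± 32.4 TPM and MEF2A at 60.4 ± 13.4 TPM. The middle of the order was held by MSTN (43.3 ± 16.2 TPM), MYOG (26.4 ± 10.4 TPM), MYH3 (26.2 ± 23.3 TPM) and MYOD1 (20.4 ± 6.82 TPM). MYF5 (12.4 ± 3.12 TPM), MEF2D (7.67 ± 1.45 TPM) and PAX7 (3.57 ± 0.694 TPM) were the least abundant. On this scale MYF6, the factor associated with mature fibres, was the highest of the myogenic regulatory factors, and MYF5 and PAX7 were low. The place of MYOD1 below MYF6 depends on annotated exonic lengths of 8745 bases for MYOD1 and 1495 bases for MYF6. A transcript shorter than its annotation would have a higher TPM than given, and the lengths were not tested. MYOD1 exceeded MYF5 in 16 of 17 libraries and MEF2D exceeded PAX7 in 17 of 17, whereas MYH3 exceeded MYOD1 in 9 of 17, so that this pair was not separated beyond its spread. MYOG exceeded MYH3 in 13 of 17 libraries, with means that differed by less than either SD, and MSTN exceeded MYOG in 12 of 17. In bulk muscle, fewer cells of a type and less RNA per cell cannot be told apart, which applies to PAX7 and MYF5 above all, since satellite cells are a small part of the tissue.

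**Figure D1:**
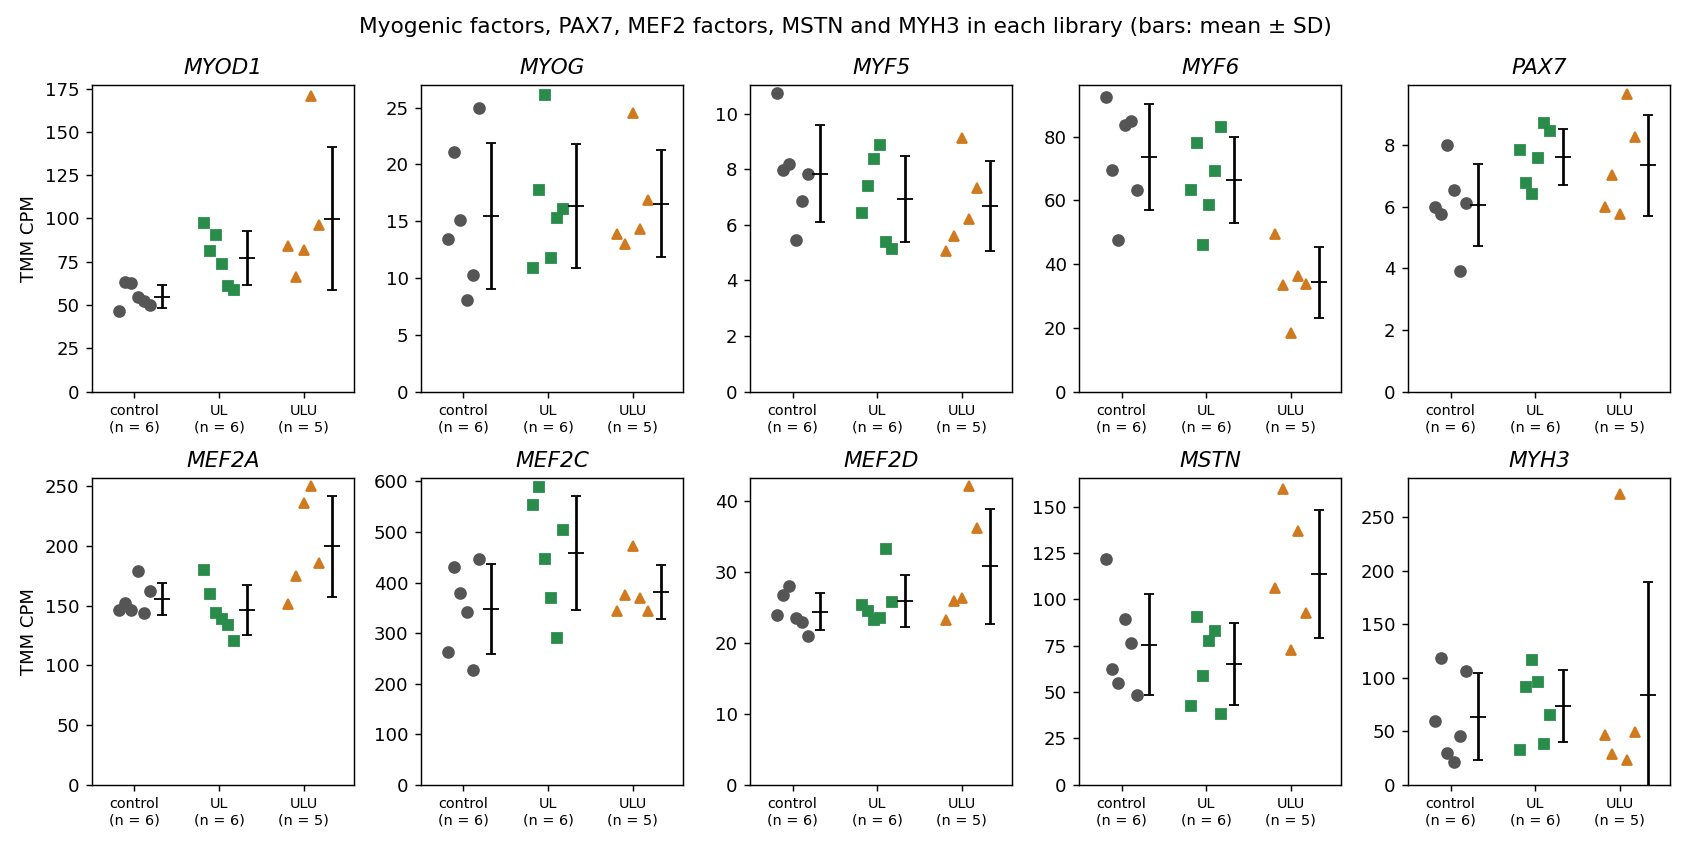
TMM-scaled CPM of each gene (y axis, linear, from 0) in every library of the control, UL and ULU diets (x axis); points are libraries, and the bar beside them is the mean with its SD, cut off at 0 for MYH3 in ULU. The 5 ULU points of MYOD1 lie above all control points, 4 of the 5 ULU points of MYF6 lie below all control points, and ULU replicate 42 stands alone at 272 CPM for MYH3.

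Diets were compared pairwise with edgeR's quasi-likelihood F test in 1 model of all 17 libraries, and a gene was called when its Benjamini-Hochberg adjusted p over all 14203 genes was under 0.05; UL and ULU were set against the same control libraries. In ULU vs control, 2 of the 10 genes were called, MYOD1 as higher and MYF6 as lower, beside 2.98% of all genes tested. MEF2A, MEF2D and MSTN also had an unadjusted p under 0.05, which makes 5 of 10 genes beside 18.9% of all genes. In UL vs control none of the 10 was called, beside 0% of all genes. MYOD1 and MEF2C had an unadjusted p under 0.05 there, as did 10.8% of all genes, and DESeq2 on the libraries of these diets called MYOD1 alone, beside 1.46% of the 10209 genes it gave an adjusted p. In ULU vs UL none was called, beside 0.0352% of all genes. MYF6, MEF2A and MSTN had an unadjusted p under 0.05 in that comparison, where the share over all genes was also 10.8%, and DESeq2 called those 3 genes, beside 12.1% of 2088 genes with an adjusted p in its fit of all libraries and 6.23% of 3951 in that of these diets. The median log2(fold change) of the 10 genes was 0.31 in ULU vs control, against −0.028 over all genes tested, and 8 of 10 values were positive. With the study's added limit of 1 on the absolute log2(fold change), MYF6 remained as the only called gene of the 10, beside 0.415% of all genes.

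**Figure D2:**
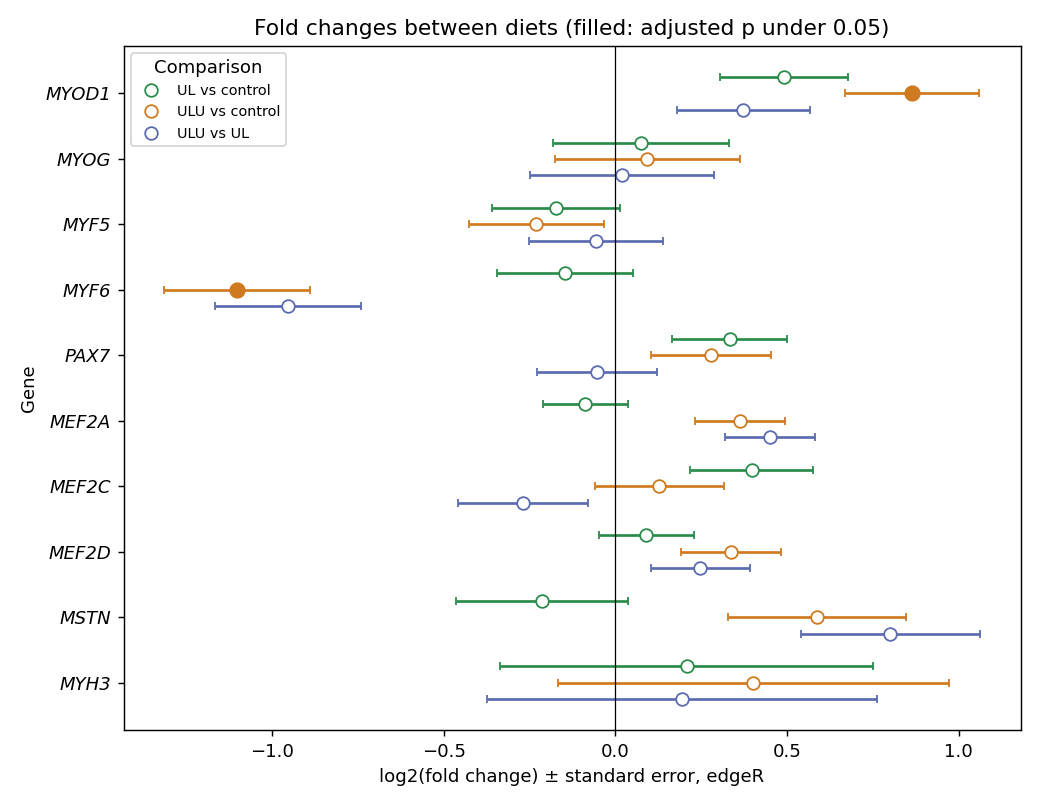
Log2(fold change) with its standard error (x axis) of each gene (y axis) for the 3 pairs of diets, from edgeR; filled points have an adjusted p under 0.05. The filled points are MYOD1 at 0.86 and MYF6 at −1.10, both in ULU vs control.

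MYOD1 (ENSSSCG00000013375, Sscrofa11.1 chr2:41415735-41425234, minus strand), the factor that can turn other cells into myoblasts, was higher in ULU than in control. Control libraries held between 46.5 and 63.2 CPM with a median of 53.3 CPM. In UL the lowest library had 58.7 CPM, the median was 77.7 CPM and the highest had 97.2 CPM. Replicates 40 to 44 of ULU had 84.0, 66.1, 82.0, 171 and 96.4 CPM. All 5 ULU libraries lay above all 6 control libraries, and 4 of 6 UL libraries did, so that UL lay between both other diets; without overlap of ranges, ULU exceeded control for 2.3% of all genes tested. Means were 54.9 ± 6.77 CPM for control, 77.1 ± 15.6 CPM for UL and 99.9 ± 41.1 CPM for ULU (SD over 6, 6 and 5 libraries), and ULU replicate 43 lay farthest from its group.

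In ULU vs control the log2(fold change) of MYOD1 was 0.86 (SE 0.19, 1.82-fold, edgeR adjusted p = 0.0258), and a two-sided exact permutation test of log2 CPM gave p = 0.00216, the smallest its 462 splits allow. Without ULU replicate 43 the value was 0.58 and the edgeR adjusted p was 0.0652, and when only the libraries of these diets entered the model the edgeR adjusted p was 0.0627. For UL vs control the log2(fold change) was 0.49 (SE 0.19, edgeR adjusted p = 0.351), while the two-sided exact permutation test gave p = 0.0130 before any adjustment. No difference between the seaweed diets passed the test for MYOD1, with 0.37 in ULU vs UL (SE 0.19, edgeR adjusted p = 0.508).

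MYF6 (ENSSSCG00000026533, chr5:100762910-100765704, minus strand) moved the other way and was lower in ULU. It varied in control from 47.5 to 92.6 CPM around a median of 76.6 CPM. The range in UL was 46.2 to 83.0 CPM with a median of 66.4 CPM. In ULU the replicates 40 to 44 had 49.6, 33.3, 18.4, 36.2 and 33.8 CPM. In ULU, 4 libraries lay below every control and every UL library, and ULU replicate 40 overlapped the lowest library of either diet, so the ranges touched. The mean was 73.6 ± 16.7 CPM for control, 66.5 ± 13.4 CPM for UL and 34.3 ± 11.07 CPM for ULU (SD over 6, 6 and 5 libraries).

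The log2(fold change) of MYF6 in ULU vs control was −1.10 (SE 0.21, 2.15-fold lower, edgeR adjusted p = 0.0122; two-sided exact permutation test, p = 0.00649). It was called in all 17 fits that each left out 1 library, with values from −1.27 to −0.94. In ULU vs UL the log2(fold change) was −0.95 (SE 0.21, edgeR adjusted p = 0.113; two-sided exact permutation test, p = 0.00649), and DESeq2 on all libraries gave an adjusted p of 0.00153. Between UL and control no difference passed the test, with a log2(fold change) of −0.15 (SE 0.20, edgeR adjusted p = 0.838).

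With the logit of the mitochondrial share as a covariate, which differed between these diets, MYOD1 had a log2(fold change) of 0.91 (SE 0.30, edgeR adjusted p = 0.249) and MYF6 of −1.08 (SE 0.34, edgeR adjusted p = 0.227) in ULU vs control. The fold changes were close to those without it, the standard errors were larger, and 12 of all 14203 genes (0.0845%) were called in that fit. Since the share of every ULU library lay below that of every control library, diet and share are confounded. Neither the fold changes nor the lost calls tell their parts from each other. Of 6 genes of the circadian clock, of which MYOD1 is a known target in muscle, 4 were called in ULU vs control, beside 2.98% of all genes. NR1D1 and DBP were not called. ARNTL (BMAL1) was at 1.69 (SE 0.28, edgeR adjusted p = 0.00693) and CLOCK at 0.48 (SE 0.12, edgeR adjusted p = 0.0391). The clock repressors PER1 and PER2 were lower, at −1.70 (SE 0.28, edgeR adjusted p = 0.00502) and −1.89 (SE 0.20, edgeR adjusted p = 0.000229). The part of the clock genes in the differences of MYOD1 and MYF6 between diets was not tested. Their relations within diets are given under other observations. The time of sampling is not given in the sources used here.

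The ratio of MYOD1 to MYF6 in TPM, computed after their values were seen and therefore a description only, had a median of 0.123 in control (0.0859 to 0.226), 0.197 in UL (0.121 to 0.335) and 0.487 in ULU (0.289 to 0.807). ULU replicates 42 and 43 held the highest ratios, at 0.761 and 0.807, the former through the lowest MYF6 and the latter through the highest MYOD1. In TPM, MYF6 was still the more abundant transcript of the pair in all 17 libraries. That order depends on the annotated exonic lengths, 8745 bases for MYOD1 and 1495 bases for MYF6. In CPM, which takes no account of length, the ULU means were 99.9 for MYOD1 and 34.3 for MYF6.

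**Figure D3:**
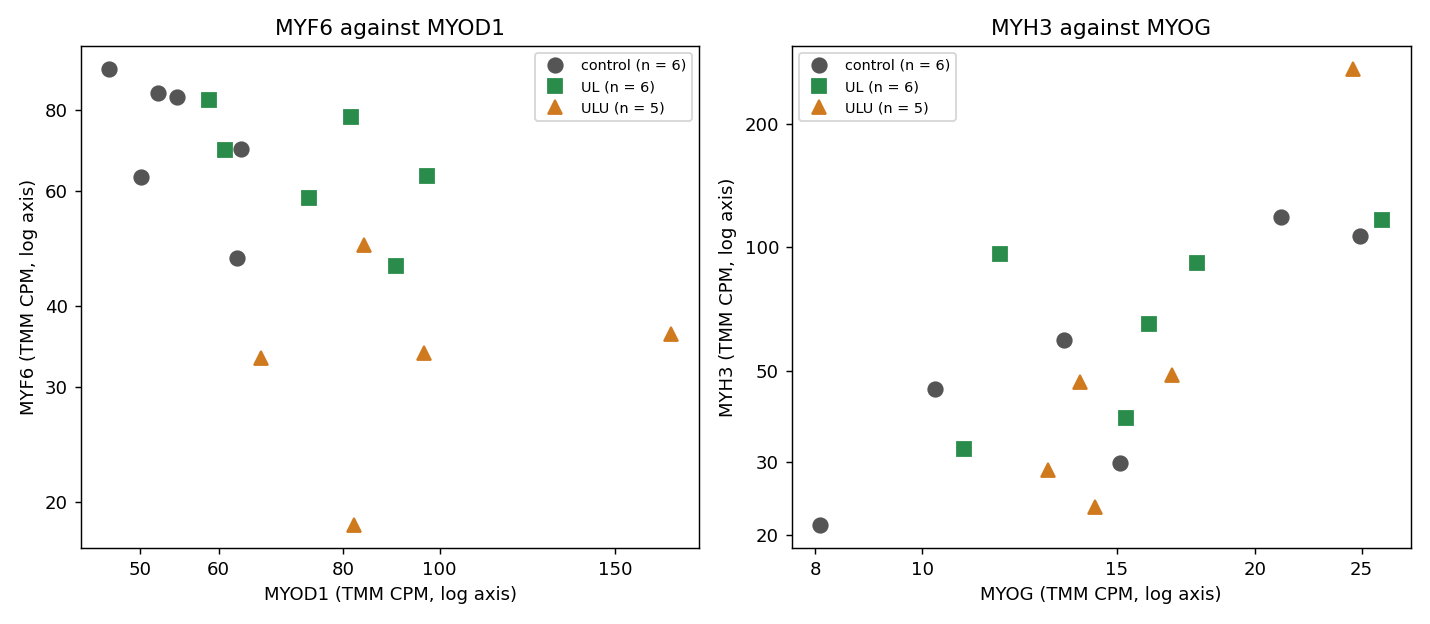
CPM of MYF6 against MYOD1 (left) and of MYH3 against MYOG (right) in each of the 17 libraries, all axes logarithmic, with the diet given by colour and shape. On the left the ULU libraries lie to the right of all control libraries and 4 of 5 lie below them, MYOD1 from 66.1 to 171 CPM and MYF6 from 18.4 to 49.6 CPM; on the right MYH3 runs from 21.1 to 272 CPM and is higher toward libraries with more MYOG.

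MYOG (ENSSSCG00000034654, chr9:113782469-113785362, minus strand), which acts after MYOD1 in differentiation, showed no difference between diets that passed the test. Control libraries ranged from 8.07 to 24.9 CPM with a median of 14.3 CPM. UL libraries ranged from 10.9 to 26.1 CPM with a median of 15.7 CPM. The ULU replicates 40 to 44 had 13.9, 12.99, 24.6, 14.3 and 16.8 CPM. The 3 diets covered nearly the same range, and the log2(fold change) was 0.07 (SE 0.26) in UL vs control, 0.09 (SE 0.27) in ULU vs control and 0.02 (SE 0.27) in ULU vs UL, with edgeR adjusted p-values of 0.951, 0.884 and 0.990.

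MYF5 (ENSSSCG00000000937, chr5:100752890-100755494, minus strand) lies 7415 bases from MYF6 on the same chromosome. Its libraries held between 5.46 and 10.8 CPM in control (median 7.90 CPM) and between 5.13 and 8.87 CPM in UL (median 6.92 CPM). ULU replicates 40 to 44 had 5.07, 5.59, 9.14, 6.21 and 7.34 CPM. The ranges overlapped in every comparison, and ULU replicate 42, the lowest of all libraries for MYF6, was the highest of ULU for MYF5. In ULU vs control the log2(fold change) of MYF5 was −0.23 (SE 0.20, edgeR adjusted p = 0.563), next to −1.10 for MYF6, and in UL vs control it was −0.17 (SE 0.19, edgeR adjusted p = 0.793); the difference between these neighbouring genes was not tested.

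PAX7 (ENSSSCG00000034627, chr6:77161097-77267415, plus strand) had from 3.92 to 8.003 CPM in control with a median of 6.05 CPM. In UL it had from 6.40 to 8.70 CPM with a median of 7.71 CPM. The ULU replicates 40 to 44 had 5.98, 7.02, 5.76, 9.66 and 8.27 CPM. Control replicate 25 was the lowest library, 2 UL libraries exceeded every control library, and the ranges of all diets overlapped. UL exceeded control by a log2(fold change) of 0.33 (SE 0.17, edgeR adjusted p = 0.489), with p = 0.0303 in the two-sided exact permutation test before adjustment, and ULU exceeded control by 0.28 (SE 0.18, edgeR adjusted p = 0.415). Both seaweed diets were close to each other, at −0.05 in ULU vs UL (SE 0.17, edgeR adjusted p = 0.948).

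The MEF2 factors differed among themselves in how they varied. MEF2A (ENSSSCG00000028771, chr1:138341153-138511311, plus strand) ranged from 144 to 179 CPM in control (median 150 CPM) and from 120 to 180 CPM in UL (median 141 CPM). It had 151, 175, 236, 250 and 186 CPM in ULU replicates 40 to 44. In ULU, 3 libraries exceeded every control and every UL library, and the ranges overlapped. The log2(fold change) of MEF2A was 0.36 in ULU vs control (SE 0.13, edgeR adjusted p = 0.126; two-sided exact permutation test, p = 0.0281) and 0.45 in ULU vs UL (SE 0.13, edgeR adjusted p = 0.227; two-sided exact permutation test, p = 0.0195). It was −0.09 in UL vs control (SE 0.12, edgeR adjusted p = 0.849). DESeq2 on all libraries called MEF2A in ULU vs UL, at an adjusted p of 0.0163.

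MEF2C (ENSSSCG00000014149, chr2:96122407-96296842, minus strand), the most abundant of the 10 genes per length, had its highest median in UL. Control libraries ranged from 228 to 448 CPM (median 361 CPM) and UL libraries from 290 to 588 CPM (median 475 CPM). ULU replicates 40 to 44 had 343, 375, 473, 369 and 344 CPM. In UL, 3 of 6 libraries lay above every control library, and the other UL libraries lay within the control range. The log2(fold change) was 0.40 in UL vs control (SE 0.18, edgeR adjusted p = 0.437; two-sided exact permutation test, p = 0.113), 0.13 in ULU vs control (SE 0.19, edgeR adjusted p = 0.754) and −0.27 in ULU vs UL (SE 0.19, edgeR adjusted p = 0.669). MEF2C shares 279 exonic bases with another gene model on the same strand, where featureCounts by default counts a read for neither gene.

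MEF2D (ENSSSCG00000006482, chr4:93581598-93651639, plus strand) was the least abundant MEF2 gene. It ranged from 21.0 to 28.1 CPM in control (median 23.8 CPM) and from 23.3 to 33.2 CPM in UL (median 24.9 CPM). Its ULU replicates 40 to 44 had 23.2, 26.0, 26.3, 42.2 and 36.3 CPM. Only replicates 43 and 44 of ULU exceeded every control and UL library. In ULU vs control the log2(fold change) was 0.34 (SE 0.15, edgeR adjusted p = 0.211; two-sided exact permutation test, p = 0.0931), and it was 0.09 in UL vs control (SE 0.14, edgeR adjusted p = 0.863) and 0.25 in ULU vs UL (SE 0.15, edgeR adjusted p = 0.572).

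MSTN (ENSSSCG00000016047, chr15:94620269-94628546, minus strand) had its highest mean in ULU and its lowest in UL. In control it ranged from 48.5 to 122 CPM with a median of 69.6 CPM. UL libraries lay between 37.9 and 90.8 CPM with a median of 68.4 CPM. For ULU, replicates 40 to 44 had 106, 159, 73.0, 137 and 92.9 CPM. Of the ULU libraries, 4 of 5 exceeded every UL library and 2 exceeded every control library. Mean CPM was 75.6 ± 27.1 for control, 65.2 ± 22.0 for UL and 114 ± 34.6 for ULU (SD over 6, 6 and 5 libraries). In ULU vs UL the log2(fold change) was 0.80 (SE 0.26, edgeR adjusted p = 0.277; two-sided exact permutation test, p = 0.0281), and DESeq2 on all libraries gave an adjusted p of 0.0287. It was 0.59 in ULU vs control (SE 0.26, edgeR adjusted p = 0.225; two-sided exact permutation test, p = 0.0671) and −0.21 in UL vs control (SE 0.25, edgeR adjusted p = 0.808). MSTN overlaps gene models on the opposite strand by up to 33 bases, where reads cannot be assigned by strand.

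MYH3 (ENSSSCG00000018007, chr12:55347087-55375353, minus strand), a myosin of embryonic and regenerating fibres, varied most of the 10 genes, by 12.9-fold in CPM between the lowest and highest library. Control libraries ranged from 21.1 to 119 CPM (median 52.4 CPM) and UL libraries from 32.3 to 117 CPM (median 78.3 CPM). ULU replicates 40 to 44 had 46.9, 28.7, 272, 23.3 and 49.0 CPM. The ULU median of 46.9 CPM lay below that of control, while the ULU mean of 84.0 ± 106 CPM (SD, n = 5) lay above it through replicate 42 alone. In ULU vs control the value was 0.40 on the log2 scale (SE 0.57, edgeR adjusted p = 0.742) and turned to −0.78 without that library. It was 0.21 in UL vs control (SE 0.54, edgeR adjusted p = 0.928) and 0.19 in ULU vs UL (SE 0.57, edgeR adjusted p = 0.941), the latter at −0.99 without ULU replicate 42. MYH3 lies in a cluster of closely related myosin genes, so its counts are uncertain where reads match several of them.

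The other genes of the same pathways were read from lists of 95 symbols, of which 89 had a row and 78 were tested. These lists were also chosen with earlier results of these data known. In ULU vs control 3 of the 78 genes were higher and 1 was lower, beside 1.99% higher and 0.993% lower of all genes, and the median log2(fold change) was −0.07. None of the 78 was called by edgeR in UL vs control or in ULU vs UL.

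**Figure D4:**
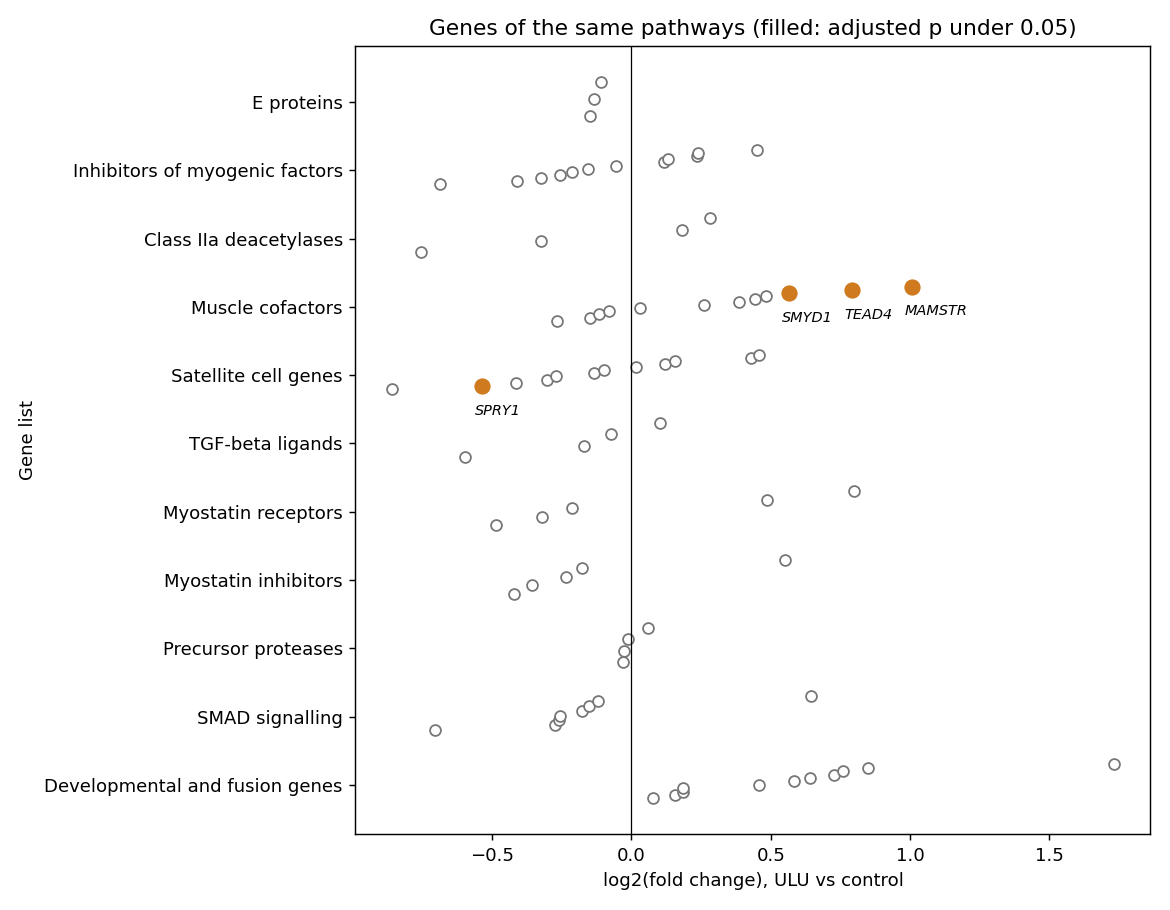
Log2(fold change) in ULU vs control (x axis) of each tested gene in the lists of partners, cofactors, inhibitors, receptors and targets (y axis; the vertical spread within a list only separates points); filled points have an edgeR adjusted p under 0.05. The filled points are SMYD1, TEAD4 and MAMSTR, from 0.57 to 1.01, and SPRY1 at −0.54.

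In the list of cofactors and partner factors of muscle transcription, 3 of 12 tested genes were called higher in ULU than in control, beside 1.99% of all genes. The list was chosen with earlier results of these data known, so this count is not a test of the list. MAMSTR, a coactivator of MEF2 factors, had means of 20.1 ± 4.13 CPM for control, 31.7 ± 4.46 CPM for UL and 40.5 ± 4.74 CPM for ULU (SD over 6, 6 and 5 libraries). Its highest control library had 23.7 CPM and its lowest ULU library 32.6 CPM, so the ranges were apart, and the log2(fold change) was 1.01 (SE 0.14, edgeR adjusted p = 0.00181). For UL vs control it was 0.66 (SE 0.14, edgeR adjusted p = 0.138), again without overlap, as for 0.493% of all genes, the lowest UL library having 23.8 CPM, and DESeq2 on all libraries called it there, as it did 1.61% of genes. TEAD4 is a TEA domain factor that acts with myogenic factors. Its means were 25.7 ± 4.33 CPM for control, 35.3 ± 4.62 CPM for UL and 44.4 ± 5.34 CPM for ULU (SD over 6, 6 and 5 libraries). In ULU vs control it rose by 0.79 on the log2 scale (SE 0.13, edgeR adjusted p = 0.00502). SMYD1, a histone methyltransferase and myosin chaperone of muscle, had means of 403 ± 43.4 CPM for control and 598 ± 78.2 CPM for ULU (SD over 6 and 5 libraries), rose by 0.57 on the log2 scale (SE 0.10, edgeR adjusted p = 0.00979) and had its ULU libraries above all control and all UL libraries; ULU exceeded UL in this way for 1.09% of all genes. MAMSTR, TEAD4 and SMYD1 each kept the call in 17 of 17 fits without 1 library.

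SPRY1 is an inhibitor of growth factor signalling that keeps satellite cells quiescent. Its means were 24.1 ± 4.07 CPM for control, 18.5 ± 2.09 CPM for UL and 16.6 ± 1.54 CPM for ULU (SD over 6, 6 and 5 libraries). In ULU vs control it fell by 0.54 on the log2 scale (SE 0.12, edgeR adjusted p = 0.0287). In UL vs control it was not called, with an unadjusted edgeR p of 0.00435. SPRY1 was the only called gene of 12 tested satellite cell genes, beside 0.993% of all genes called lower in ULU vs control. It kept the call in 12 of 17 fits without 1 library, losing it without control replicate 22, 23 or 24 or ULU replicate 40 or 43. The call was also lost without a filter on low counts and in the model of these diets only. The summed CPM of the satellite cell list ranged from 331 to 471 in control, 357 to 465 in UL and 381 to 489 in ULU, which overlapped. With the mitochondrial share as a covariate none of these 4 genes was called, and their log2(fold changes) were 1.10 for MAMSTR, 0.99 for TEAD4, 0.50 for SMYD1 and −0.50 for SPRY1.

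No gene of the remaining pathway lists was called by edgeR in any comparison. Of the E proteins that pair with myogenic factors, TCF12 had the smallest p in ULU vs control, at −0.14 (edgeR adjusted p = 0.540). Among 12 tested inhibitors of these factors, ID2 stood at −0.69 (edgeR adjusted p = 0.192). HDAC4, of the class IIa deacetylases that repress MEF2, was at −0.76 (edgeR adjusted p = 0.121) with a mean of only 0.812 CPM in ULU. None of these differences passed the test.

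The myostatin pathway was equally without a called gene. Its receptor list came closest through TGFBR1, a type I receptor of the family, at −0.49 in ULU vs control (SE 0.14, edgeR adjusted p = 0.0639), with all 5 ULU libraries below all control libraries, as for 1.09% of all genes. The type I receptor ACVR1B, at a mean of 1.36 CPM in control, had values of the other sign, at 0.80 in ULU vs control (SE 0.26, edgeR adjusted p = 0.0912) and 0.88 in UL vs control (SE 0.25, edgeR adjusted p = 0.190). Of ligands, TGFB1 stood at −0.60 (edgeR adjusted p = 0.296), and of binding proteins, LTBP4 at −0.42 (edgeR adjusted p = 0.178). The myostatin antagonist follistatin, FST, was at −0.18 (edgeR adjusted p = 0.778), and the activin receptors ACVR2A and ACVR2B were at −0.21 and 0.49 (edgeR adjusted p = 0.291 and 0.307). BMP1, a protease that releases the ligand from its propeptide, was at −0.03 (edgeR adjusted p = 0.951), and SMAD4, the common signal transducer, at −0.27 (edgeR adjusted p = 0.214). MSTN thus had its highest mean in ULU beside receptors and SMAD genes for which no difference passed the test.

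All 11 tested genes of the developmental and fusion list had a positive log2(fold change) in ULU vs control, with a median of 0.58 against −0.028 over all genes, and none was called. Without ULU replicate 42, the highest of the ULU libraries for 7 of these genes, 5 values were positive and 6 negative and the median was −0.16. The ULU median lay below the control median for 7 of the 11 genes. The smallest p belonged to MYBPH, a myosin binding protein, whose mean was 692 CPM in control and 1171 CPM in ULU (0.76, SE 0.26, edgeR adjusted p = 0.107). The neonatal myosin MYH8 stood at 0.19 (SE 0.67, edgeR adjusted p = 0.909) and the fusion factor MYMK at 0.18 (SE 0.42, edgeR adjusted p = 0.850), and without that library they stood at −1.14 and −0.39, whereas MYBPH stood at 0.79. The row named MYH2, which spans the adult fast myosin genes MYH1, MYH2 and MYH4 of RefSeq, was higher in ULU than in control by 0.53 (SE 0.13, edgeR adjusted p = 0.0397).

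Markers of other cells were read beside these values. None of the tested endothelial, fibroblast, leukocyte, adipocyte, smooth muscle and Schwann cell markers was called by edgeR in any comparison, and the summed CPM of each list overlapped between diets. All 5 leukocyte markers and all 5 fibroblast markers were at negative values in ULU vs control, with summed leukocyte levels from 29.6 to 132 CPM in control and from 17.7 to 114 CPM in ULU, and fibroblast levels from 2640 to 5724 CPM and from 2248 to 5724 CPM. All 3 tested adipocyte markers were also negative, with a median of −1.10 and ADIPOQ at −1.66 (SE 0.82, edgeR adjusted p = 0.284), and their list summed to between 75.3 and 557 CPM in control and between 23.9 and 138 CPM in ULU. Both tested Schwann cell markers were negative as well, with a median of −0.90 and sums of 1.59 to 10.4 CPM in control and 0.444 to 6.16 CPM in ULU. The 6 tested skeletal muscle markers were all positive in ULU vs control (median 0.40) and in UL vs control (median 0.28). Of them only the row named MYH2 was called, in ULU vs control. The part of any of these cell types in the differences of MYOD1, MYF6 and the cofactors was not tested.

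Variation of the 10 genes within diets was compared pair by pair. Over the 17 libraries, after the mean of each diet had been removed from log2 CPM, 23 of the 45 pairs had a positive Pearson's r, the median r was 0.02, and 1 pair passed a permutation test adjusted over the 45 pairs. That pair was MYOG and MYH3, with r = 0.76 (permutation test, p = 0.00079, adjusted p = 0.0355) and Spearman's rho = 0.74 (permutation test, p = 0.00216, adjusted p = 0.0972). With the 2 libraries farthest from the MYOG median left out, r was 0.70, and within the diets of 6 libraries it was 0.85 in control and 0.60 in UL. The adjusted p of this pair missed 0.05 in 7 of the 17 fits without 1 library, that without ULU replicate 42 among them. PAX7 and MEF2D had the next highest r, at 0.70 (permutation test, p = 0.00349, adjusted p = 0.0785; rho = 0.74, p = 0.00487, adjusted p = 0.110). MYOD1 and MYF6, the genes that differed between ULU and control, had an r of −0.15 within diets (permutation test, adjusted p = 0.938). By diet, r was −0.65 in control, −0.58 in UL and 0.17 in ULU. Without the 2 libraries farthest from the MYOD1 median, r was −0.34.

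**Figure D5:**
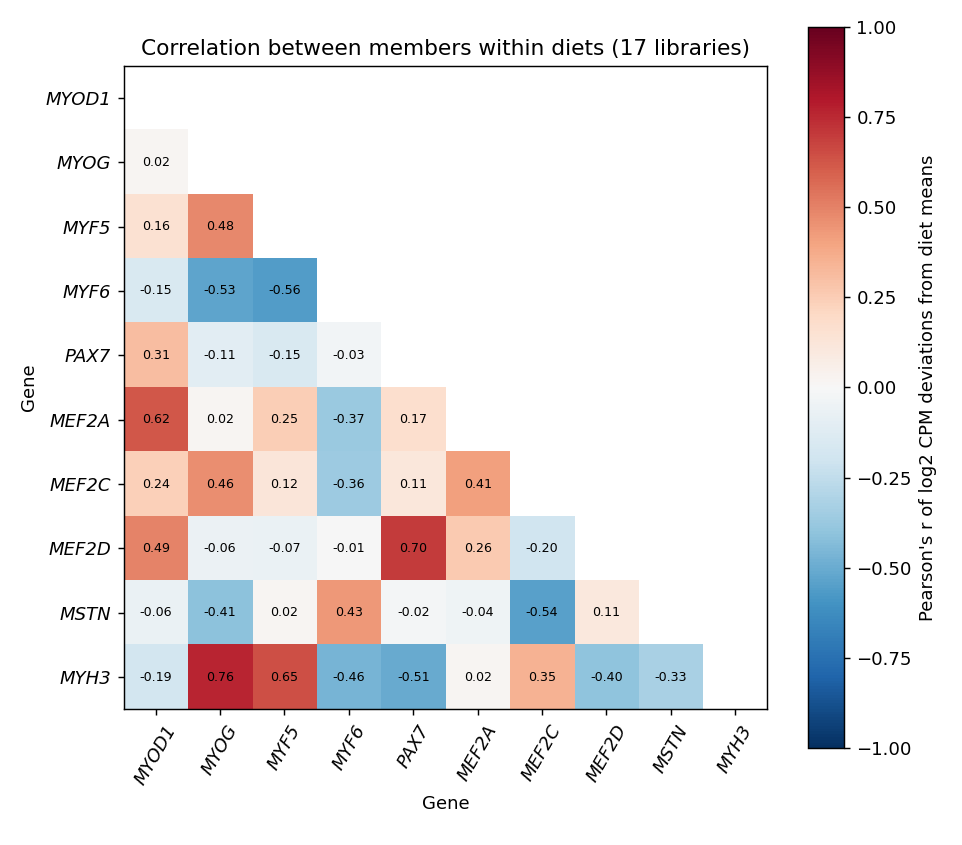
Pearson's r between each pair of genes (both axes) of log2 CPM deviations from the diet means over 17 libraries, on a colour scale from −1 to 1. The highest value is 0.76 for MYOG and MYH3 and the lowest −0.56 for MYF5 and MYF6.

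The tested gene with the most similar pattern within diets was named for each of the 10 genes, as a description over 17 libraries that share depth and composition and without a test. For MYH3 it was CHRNA1, the α subunit of the muscle acetylcholine receptor, with r = 0.94, and for MYOG it was KLF6 with r = 0.91. MYOD1 was closest to FHIP1A (r = 0.84), MYF5 to PPFIA2 (r = 0.85), MYF6 to CBX6 (r = 0.83) and PAX7 to PLEKHM2 (r = 0.87). The closest genes to MEF2A, MEF2C and MEF2D were CLPX (r = 0.86), KPNA5 (r = 0.88) and SRRM2 (r = 0.82), and MSTN was closest to DYNC2LI1 (r = 0.84). The closest genes of MYF5, PAX7, MEF2A and MYF6 lay on the chromosome of the gene itself, at 473861, 2253328, 24662578 and 91574257 bases.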

How the data were processed

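The authors sequenced cDNA of muscle RNA as single reads, trimmed them with fastp, aligned them with HISAT2 and counted them with featureCounts (Subread 1.5.1 per the labels, 2.0.1 per the file header) on Ensembl annotation 104 of Sscrofa11.1. They deposited raw counts per gene, without normalization. The header names no option for strand or for reads at several sites, so such reads are taken as left out and antisense overlaps as unresolved. A column of means over libraries was not used.

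Here the counts of 31908 genes were scaled with TMM factors in edgeR 4.0.16 (R 4.3.3), filtered with filterByExpr (14203 genes kept) and tested with the quasi-likelihood F test in 1 model of diet over 17 libraries. P-values were adjusted with Benjamini-Hochberg over all genes tested. Standard errors are the absolute log2(fold change) divided by the square root of F. CPM used the scaled totals, log2 CPM a prior count of 2, and TPM the gene lengths of the table. Single genes were also compared with two-sided exact permutation tests, and pairs with 100000 permutations within diets (SciPy 1.17.1). Gene names came from the ID and RefSeq tables.

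All 10 genes were named. Of other genes, those called in any comparison (at most 4 per list), the smallest p in ULU vs control of lists without a call, and the most similar gene to each of the 10 were named; FST, ACVR1B, ACVR2A, ACVR2B, ADIPOQ, MYH8 and MYMK were added after their values were seen. The 10 genes and the lists were chosen with earlier results of these data known, and 1 gene was left out of the lists and is not reported here. On counts simulated for these libraries, the test called 80% of genes changed 2-fold and 99% of those changed 4-fold in ULU vs control (14196 genes). Of the calls, 4.79% were false. For UL vs control (14219 genes) these were 76%, 100% and 3.83%. The changed genes were drawn from those above a limit on mean reads, and each gene had the spread typical of its abundance. The rates therefore do not cover genes with few reads or a larger spread between animals, such as MYH3. Alternatives were RLE and upper quartile factors, no filter, the mitochondrial share as a covariate, 2 diets per model, DESeq2 1.42.0, the limit on fold change, other scales and leaving out each library. Each library is 1 piglet, so p-values measure the spread between animals.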

Additional observations from a re-analysis of the deposited data

Results flagged for a closer look

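In 4 of the 30 groups of libraries checked (10 genes in 3 diets), 1 library stood far from the others of its diet by Dixon's criterion. Chance alone meets it in about 5% of groups when the values are normally distributed and the groups are independent. Here it was applied to CPM without logarithms, and the groups share the same libraries. The count of 4 can therefore not be judged against that rate. ULU replicate 42 had 272 CPM of MYH3, against 49.0 CPM in the next ULU library, and 473 CPM of MEF2C, against 375 CPM in the next. ULU replicate 43 had 171 CPM of MYOD1, against 96.4 CPM in the next library of that diet. UL replicate 31 had 33.2 CPM of MEF2D, against 25.8 CPM in the next UL library.

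The value of MYH3 decides the direction of its fold changes in ULU, and that of MYOD1 decides its call in ULU vs control, as given with each gene. MEF2C and MEF2D kept the direction of each of their fold changes without these libraries, and neither was called with them or without them.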

How the results depend on the processing

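With the mitochondrial share as a covariate 0 of the 10 genes and 0 pathway genes were called in ULU vs control, with 2 diets per model 1 (MYF6) and 3, with the limit on fold change 1 (MYF6) and 1, and without a filter 3 pathway genes, against 2 and 4. Of all genes these fits called 0.0845%, 0.821%, 0.415% and 0.887%, against 2.98%. DESeq2 on all libraries called 9 pathway genes for ULU vs control, 2 for UL vs control and 1 for ULU vs UL, and on 2 diets it called 8, 1 and 1, beside 8.97%, 1.61% and 12.1% and then 7.17%, 1.46% and 6.23% of all genes with an adjusted p. Of the 10 genes it called MYOD1 and MYF6 in ULU vs control in either fit. The DESeq2 adjusted p of MYOD1 was 0.00133 on all libraries and 0.00320 on 2 diets. For MYF6 these were 8.67e-05 and 0.000292. DESeq2 also called 3 of the 10 in ULU vs UL in either fit (MYF6, MEF2A, MSTN) and, on 2 diets only, 1 in UL vs control (MYOD1). Leaving out 1 library gave 1 to 2 of the 10 genes and 3 to 7 pathway genes in ULU vs control (7 without control replicate 25, 3 without control replicates 22, 23 or 24 or ULU replicates 40 or 43), and 0 to 2 correlated pairs; Spearman's rho gave 0. MYOG and MYH3 lost their adjusted p under 0.05 in 7 of those 17 fits (control replicate 22 or 24, UL replicate 27, 28 or 29, ULU replicate 42 or 44).

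Among the 10 genes, directions turned only for values near 0 or for MYH3. MYOG in ULU vs UL was −0.0077 with upper quartile factors. Leave-one-out ranges crossed 0 for MYOG (UL vs control −0.11 to 0.27, ULU vs control −0.094 to 0.29, ULU vs UL −0.17 to 0.21), MYF5 in ULU vs UL (−0.20 to 0.029), PAX7 in ULU vs UL (−0.17 to 0.023) and MYH3 (−0.78 to 0.69 in ULU vs control, −0.99 to 0.44 in ULU vs UL). In the alternatives that kept every library of a comparison, 199 values of the 10 genes kept direction and call. Of the others, 7 gained a call, 3 lost a call and 1 turned direction. The developmental and fusion list, run without each ULU library after its values were seen, had 10 or 11 of 11 values positive except without replicate 42 (5 of 11). The causes were not tested. No paired analysis was possible because the diets share no replicate numbers.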

Other observations

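Relations of MYOD1 and MYF6 to the clock genes ARNTL, CLOCK, PER1 and PER2 within diets were computed after the differences between diets had been seen, over 17 libraries and as 8 relations adjusted together. The highest was MYOD1 with PER1, at r = 0.52 (permutation test, p = 0.139, adjusted p = 0.589) and rho = 0.50 (permutation test, p = 0.0484), and r was 0.29 without the 2 libraries farthest from the median of PER1. MYOD1 with ARNTL had r = −0.09 (permutation test, p = 0.706, adjusted p = 0.743) and rho = −0.05 (permutation test, p = 0.867), and MYF6 with ARNTL had r = 0.22 (permutation test, p = 0.412, adjusted p = 0.658) and rho = 0.37 (permutation test, p = 0.177). None of the 8 relations had an adjusted p under 0.05.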
